A study of Homo sapiens with 6 samples.

Results

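Transcripts of 10 genes of the Notch pathway were followed in human cells on the way to nephron progenitors: the receptors NOTCH1, NOTCH2 and NOTCH3, the ligands JAG1 and JAG2, and the target genes HES1, HES4, HEY1, HEY2 and HEYL. The genes were taken by name as Notch genes outside the segmentation clock, the oscillating gene network of the forming somites. Other genes of the pathway form a separate list, and the 10 were chosen with earlier results of these data known. Each of the 10 matched 1 Ensembl ID in a table of 60107 gene IDs, and all 10 passed the filter on low counts.

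The cells were H9, an established human embryonic stem cell line, driven toward nephron progenitors by a protocol of 10 days and collected on day 9. In 3 libraries the medium was complete and held glutamine, and in the other 3 glutamine was left out from day 0 onward. All 6 libraries came from the same line and protocol and carried no engineered allele named in the labels. The labels do not say whether the 3 samples of a group were separate cultures, so p-values measure the spread between these samples, which may be technical.

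Notch receptors sit in the cell surface and are activated by ligands on a neighbouring cell. Binding leads to cleavage of the receptor, and its intracellular part moves to the nucleus and joins the DNA-binding protein RBPJ to switch on target genes. HES and HEY genes are the best known of these targets, and they encode basic helix-loop-helix repressors. In the developing kidney Notch signalling is known for its part in the exit of nephron progenitors from self-renewal and in the patterning of the early nephron.

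The promoters of the target genes are shown first, searched for the letters that RBPJ reads. The core TGGGAA and its reverse complement TTCCCA were searched in RefSeq promoter windows of 300 bases on GRCh38.p14, from 250 bases before the transcription start to 50 after it. Of the 5 HES and HEY genes 4 had a window in the table, and all 4 held a match, 3 of them with 2 or more. HEY1 had no window and was not searched. None of the 5 receptor and ligand windows held one. Over all 35116 windows of the same length 24% held a match and 3.8% held 2 or more. The longer form GTGGGAA, which contains the core, was in 6.25% of all windows and in the same 4. HES1 had its core matches at -84 and -70, both on the gene's own strand. HES4 had 1, at -76. HEYL had matches at -178 and -99, and HEY2 at -213 and -3, counted from the base before the start as -1. A match is a description of letters and not evidence of binding. The RefSeq starts used here are not always those of GENCODE 29, the annotation of the gene extents given further on. Against GENCODE the HES1 matches lay before the gene and the HES4 match on the edge of its first exon. Both HEYL matches lay in the 5′ UTR, and the HEY2 match at -213 lay inside the gene but in no exon, between the starts of 2 annotated transcripts. The HEY2 match at -3 lay in an exon, within an annotated UTR. Upstream stretches of HES1, HES4 and HEY2 are printed 5′ to 3′ on the gene's strand, with the core in capitals. They lie at chr3:194136038-194136107 on the plus strand (HES1), chr1:1000168-1000207 on the minus strand (HES4) and chr6:125749402-125749461 on the plus strand (HEY2).
HES1: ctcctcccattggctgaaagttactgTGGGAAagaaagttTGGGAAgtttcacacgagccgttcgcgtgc
HES4: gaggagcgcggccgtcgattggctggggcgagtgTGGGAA
HEY2: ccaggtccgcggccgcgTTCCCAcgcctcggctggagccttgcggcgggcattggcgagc

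The libraries held 78220507 to 84746566 counts. One library stood apart from its label: replicate 1 with glutamine had a Pearson's r across genes of 0.976 with either library of its own group, and of 0.991 to 0.993 with those grown without glutamine. The results of the 10 genes are therefore given with all 6 libraries and again without that one. The library was singled out from its values, so the second fit is a description of the other 5 libraries and not independent support.

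Values are CPM (counts per 1000000 counts of a library scaled by TMM), and fold changes are without minus with glutamine on the log2 scale. With all 6 libraries, edgeR's quasi-likelihood test called 0 of the 10 genes at a Benjamini-Hochberg adjusted p under 0.05, against 0.00442% of all 22613 genes tested. At an unadjusted p under 0.05 there were 4 of 10, against 29.7% of all genes. DESeq2 called NOTCH1 and HES4, where 14% of the genes it adjusted over were called. Without replicate 1 with glutamine, edgeR called 8 of the 10, all higher without glutamine, against 22.3% of 23164 genes called higher and 19% called lower. JAG2 and HEY2 were not called. Over the 10 genes the median log2 fold change was 0.65 in the fit of 6 libraries and 1.25 in the fit of 5, where the medians over all genes tested were 0.0012 and 0.0078. The 10 genes were chosen with earlier results of these data known, so these contrasts are descriptions and not independent support.

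**Figure D1:**
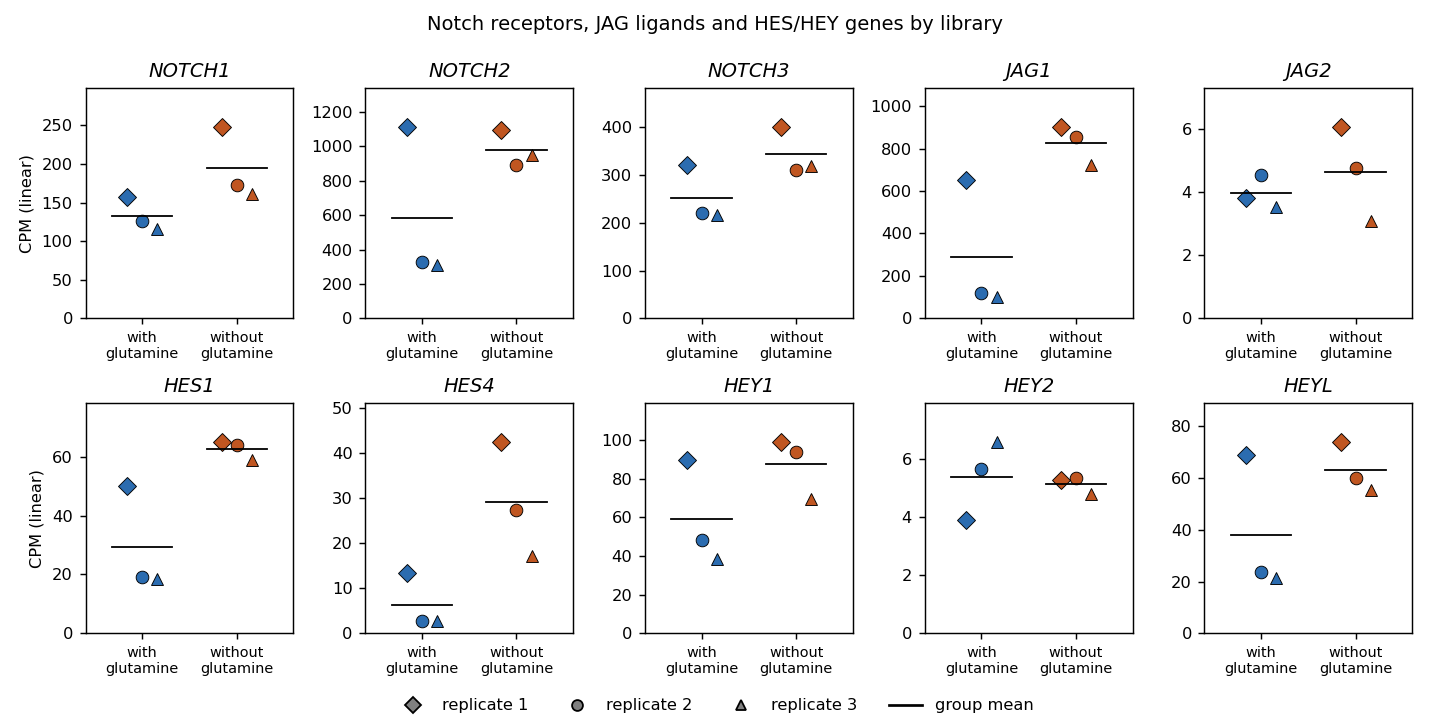
CPM of each gene on a linear axis that starts at 0, with 1 point per library and a line at the group mean (n = 3 in each group). In 8 panels, all but JAG2 and HEY2, replicate 1 with glutamine lies above the other 2 libraries with glutamine.

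Among the receptors, which share the Jagged and Delta ligands, NOTCH2 had the largest fitted change. Its 3 libraries with glutamine, replicates 1 to 3 in that order as for every gene here, had 1115, 329 and 310.0 CPM, and the 3 without had 1097, 893 and 947. Replicate 1 with glutamine was the highest library of all 6, so the groups overlapped, while the other 2 of its group lay under every library without glutamine. Fitted on all libraries, the log2 fold change was 0.74 (SE 0.48, adjusted p from edgeR 0.322). Without replicate 1 with glutamine it was 1.62 (SE 0.10, edgeR adjusted p 1.77e-06), or 3.07-fold.

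NOTCH1, the receptor best known from T cell development, was at 158, 126 and 115 CPM with glutamine and at 248, 173 and 162 CPM without. The groups did not overlap, but replicate 1 with glutamine came close to the lowest library without, and they overlapped under upper quartile scaling and under library size only. EdgeR gave a log2 fold change of 0.55 (SE 0.19, adjusted p 0.116), and DESeq2 an adjusted p of 0.0357. Without replicate 1 with glutamine it was 0.69 (SE 0.16, edgeR adjusted p 0.00702).

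NOTCH3, a receptor prominent in vascular mural cells, was at 319, 219.5 and 215 CPM with glutamine and at 399.9, 310.4 and 318 CPM without. Replicate 1 with glutamine fell inside the range of the other group. A log2 fold change of 0.45 (SE 0.18, adjusted p from edgeR 0.146) became 0.66 (SE 0.11, edgeR adjusted p 0.00096) once that library was left out. In the fit of 5 libraries NOTCH1 was 1.61-fold and NOTCH3 1.58-fold higher without glutamine, and whether NOTCH2 differed from them was not tested.

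The receptor genes lie on GRCh38, in GENCODE 29, at chromosome 9, 136494433 to 136545786 (NOTCH1), chromosome 1, 119911553 to 120069626 (NOTCH2), and chromosome 19, 15159038 to 15200981 (NOTCH3), all on the minus strand. NOTCH2 has near-identical partial copies in the genome, and how reads with several alignments were counted is not given in the sources used here. The copy NOTCH2NLA had 39 to 175 counts, at most 0.193% of the counts of NOTCH2 in the same library. Reads shared with copies could make the level of NOTCH2 uncertain, and their number is not known.

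JAG1, the ligand that is altered in Alagille syndrome, had the largest fitted change among the receptors and ligands of the 10 genes. It was at 650.2, 118 and 98.8 CPM with glutamine and at 903, 854 and 721 CPM without. The groups did not overlap, although replicate 1 with glutamine stood close under the other group and far above the rest of its own. With 6 libraries its log2 fold change came to 1.51 (SE 0.69, edgeR adjusted p 0.189), whose 95% interval of -0.11 to 3.14 includes 0. Without replicate 1 with glutamine it was 2.93 (SE 0.12, edgeR adjusted p 2.21e-07), or 7.63-fold.

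JAG2, the second Jagged ligand, was at 3.82, 4.55 and 3.53 CPM with glutamine and at 6.08, 4.79 and 3.08 CPM without. The groups overlapped, and the lowest and the highest of the 6 libraries were both without glutamine. EdgeR gave 0.23 on the log2 scale (SE 0.25, adjusted p 0.550), with a 95% interval of -0.36 to 0.82, and 0.21 without replicate 1 with glutamine (SE 0.24, edgeR adjusted p 0.518). JAG1 lies on chromosome 20, 10637684 to 10673999, and JAG2 on chromosome 14, 105140981 to 105168824, both on the minus strand. Annotated genes that overlap the members had at most 27 counts in a library, and AL050403.2, antisense to JAG1 with 79 bases of exon in common, had 1 to 9.

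Of the target genes among the 10, HES4 had the largest fitted change. It was at 13.3, 2.69 and 2.72 CPM with glutamine and at 42.5, 27.3 and 17.2 CPM without. The groups did not overlap, and both were spread out, from 2.69 to 13.3 CPM in the first and from 17.2 to 42.5 CPM in the second. EdgeR put the log2 fold change at 2.22 (SE 0.66, adjusted p 0.0932), and DESeq2 gave an adjusted p of 0.0492. Without replicate 1 with glutamine it was 3.43 (SE 0.36, edgeR adjusted p 6.62e-05), or 10.8-fold.

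HES1, the repressor with the paired core matches printed above, was at 50.2, 19.3 and 18.5 CPM with glutamine and at 65.2, 64.1 and 58.8 CPM without. The 3 libraries without glutamine lay close together and above all others. A log2 fold change of 1.10 (SE 0.37, adjusted p from edgeR 0.116) became 1.73 (SE 0.08, edgeR adjusted p 4.34e-07) or 3.33-fold without replicate 1 with glutamine. HES1 lies on chromosome 3, 194136145 to 194138732, on the plus strand, and HES4 on chromosome 1, 998962 to 1000172, on the minus strand.

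HEY1, HEY2 and HEYL are relatives of the HES genes known from vessel and heart development. HEY1 was at 89.9, 48.4 and 38.4 CPM with glutamine and at 99.2, 93.8 and 69.7 CPM without. HEYL had 68.8, 23.6 and 21.5 CPM in the first group and 74.1, 59.9 and 55.4 CPM in the second. In both genes replicate 1 with glutamine lay within the range of the libraries without, and the other 2 of its group lay under all of them.

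The log2 fold change of HEY1 was 0.57 (SE 0.31, edgeR adjusted p 0.250) with all libraries and 1.02 (SE 0.15, edgeR adjusted p 0.000595) without replicate 1 with glutamine. Those of HEYL were 0.73 (SE 0.43, edgeR adjusted p 0.286) and 1.49 (SE 0.12, edgeR adjusted p 1.52e-05). HEY2 was at 3.89, 5.65 and 6.61 CPM with glutamine and at 5.28, 5.35 and 4.79 CPM without, and its lowest library was replicate 1 with glutamine. EdgeR gave -0.07 on the log2 scale (SE 0.20, adjusted p 0.843), with a 95% interval of -0.53 to 0.40, and -0.25 (SE 0.12, edgeR adjusted p 0.116) without that library. HEY1 lies on chromosome 8, HEY2 on chromosome 6, 125747664 to 125761269, on the plus strand, and HEYL on chromosome 1, 39624153 to 39639945, on the minus strand.

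**Figure D2:**
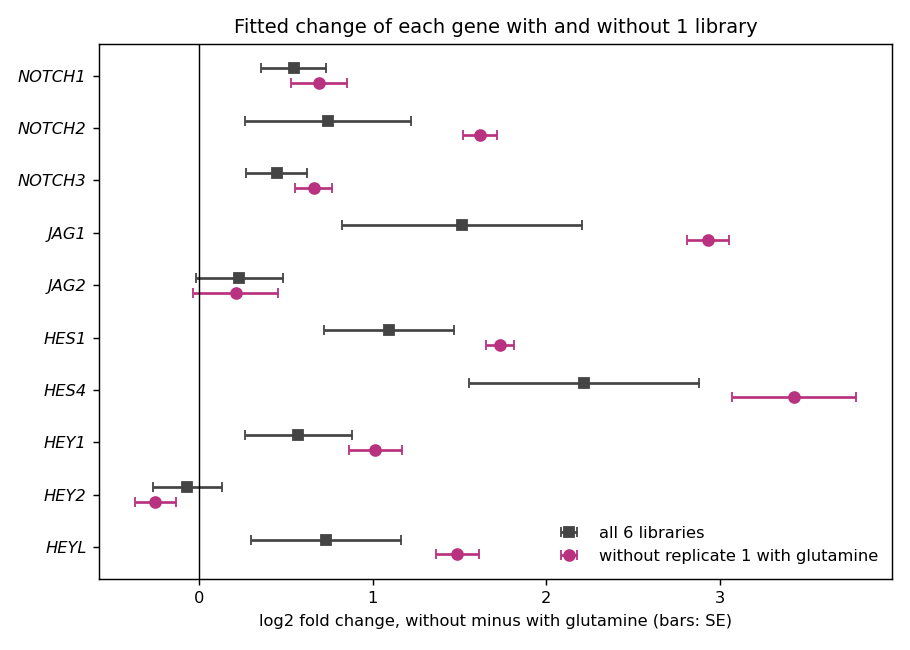
Fitted log2 fold change of each gene, without minus with glutamine, with bars for 1 SE. Squares are the fit of all 6 libraries and circles the fit without replicate 1 with glutamine, which moved JAG1 from 1.51 to 2.93 and HES4 from 2.22 to 3.43 and left JAG2 near 0.2.

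Overlap between the groups was counted as well. With all libraries the groups did not overlap for 4 of the 10 genes, NOTCH1, JAG1, HES1 and HES4, all higher without glutamine. Over all genes tested the share was 17.3% higher and 16.9% lower. In the 5 libraries without replicate 1 with glutamine 9 genes did not overlap, all but JAG2, with HEY2 as the 1 lower gene. There the shares over all genes were 32.3% higher and 31.1% lower.

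Replicate 1 with glutamine was placed between replicates 2 and 3 with glutamine, whose mean log2 CPM was set to 0, and the mean without glutamine, set to 1. Its position was 0.59 for NOTCH1, 0.69 for HES4, 0.82 for HES1, 0.85 for NOTCH3 and 0.88 for JAG1. It was past the mean without glutamine for HEY1 (1.05), HEYL (1.09) and NOTCH2 (1.12). Over the 1893 genes with a change past 2-fold in the fit of 5 libraries and a mean of at least 50 counts, the median position was 0.816. NOTCH1 and NOTCH3 were themselves under 2-fold in that fit. The 8 positions above are those of the genes called in the fit of 5 libraries. All 8 were above 0.5, nearer the libraries grown without glutamine, and so was that median. JAG2 and HEY2, not called in that fit, were at -0.42 and 2.58.

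Levels of different genes were compared as RPKM, the CPM per kilobase of all annotated exons of a gene. That length can exceed the length of the transcripts present, so the order of genes depends on it. Without glutamine JAG1 had the highest level, at 88.8 ± 10.1 RPKM (SD, n = 3), followed by NOTCH2 at 58.3 ± 6.29 and NOTCH3 at 36.5 ± 5.27. The ranges of these 3 did not overlap with each other. HES1 (30.4 ± 1.65), HEY1 (27.1 ± 4.87), HES4 (26.0 ± 11.4), NOTCH1 (18.7 ± 4.53) and HEYL (17.2 ± 2.67) came next, and each overlapped with its neighbour in this order. HEY2 (1.87 ± 0.111) and JAG2 (0.727 ± 0.235) were lowest, and their ranges overlapped with no other gene.

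With glutamine the order depended on the library. In replicates 2 and 3 NOTCH3 was highest, at 23.4 and 22.9 RPKM, and JAG1 stood at 12.7 and 10.6, a range that overlapped with those of HEY1 and NOTCH1. In replicate 1 JAG1 was at 69.9 RPKM and NOTCH2 at 66.3. By RPKM the gene with the highest level was therefore NOTCH3 in 2 libraries and JAG1 in the other 4. The annotated exons of NOTCH2 cover 16807 nt and those of NOTCH3 9394 nt. Before division by length NOTCH2 was above NOTCH3 in replicates 2 and 3 with glutamine, at 329 and 310.0 CPM against 219.5 and 215 CPM. Which transcripts were present was not tested.

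The make-up of the receptor transcripts in RPKM, which rests on the same lengths, followed the same division. NOTCH2 made up 35.5% and 35.2% of the summed receptor RPKM in replicates 2 and 3 with glutamine, 57.4% in replicate 1, and 49.5%, 51.6% and 53.3% without. NOTCH3 went the other way, at 42.4% and 43.7% in replicates 2 and 3 with glutamine, 29.4% in replicate 1 and 32.02% to 32.3% without. Among the HES transcripts HES4 made up 20.5% and 21.4% in replicates 2 and 3 with glutamine and 32.8% in replicate 1. It made up 54.6%, 44.0% and 35.0% without glutamine, so its share there varied more than that of the receptors. The summed HES and HEY levels were lowest in replicates 2 and 3 with glutamine.

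**Figure D3:**
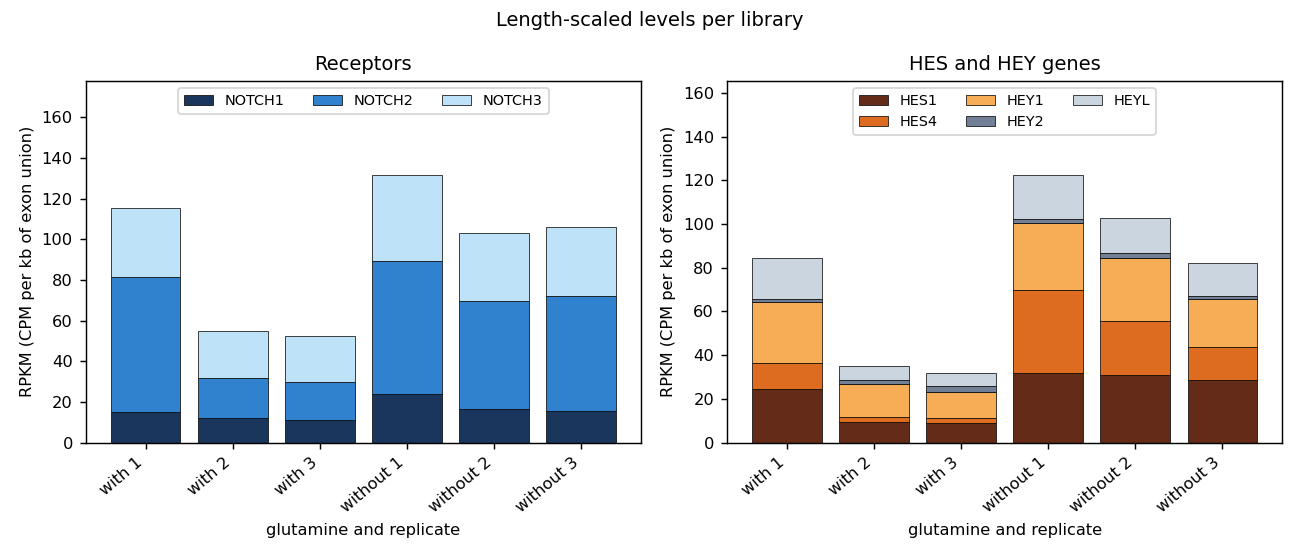
RPKM of the receptors (left) and of the HES and HEY genes (right) stacked per library, on linear axes that start at 0. The bars of replicates 2 and 3 with glutamine are the shortest on both sides, with a receptor sum of 55.1 and 52.4 RPKM against 103 to 132 in the other 4 libraries.

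The rest of the pathway was read from a list of 54 genes, chosen like the 10 with earlier results of these data known, of which 53 could be tested. HES3, at 0 or 1 count a library, could not. With all libraries edgeR called 0 of the 53. At an unadjusted p under 0.05 there were 15, or 28.3%, close to the 29.7% of all genes. DESeq2 called 6, namely NOTCH4, NEURL1, TLE1, NRARP and HES6 as higher and SPEN as lower. It called 14% of all the genes it adjusted over. Without replicate 1 with glutamine edgeR called 15 higher and 13 lower, or 28.3% and 24.5%, against 22.3% and 19% of all genes. The median log2 fold change of the 53 genes in that fit was 0.03.

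Genes for receptor processing had small fitted changes. Of the 9 genes for cleavage, which include the ADAM proteases and the subunits of gamma-secretase, 1 was called higher and 2 lower in the fit of 5 libraries, and PSEN2, a catalytic subunit, had the largest of these changes at -0.37. RBPJ, named here because of the motif, was at 248, 276 and 265 CPM with glutamine and at 257, 262 and 261 CPM without. EdgeR gave a log2 fold change of -0.02 (SE 0.07, adjusted p 0.879), and -0.06 (SE 0.06) without replicate 1 with glutamine.

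Among listed genes with a mean of at least 50 counts, the largest rises in the fit of 5 libraries were those of HES2, DTX1, DLK1, DLL1, NEURL1 and NRARP. Under that mean TLE2, a corepressor gene, rose by 2.55 and HES5 by 1.87 (edgeR adjusted p 0.00131 and 0.0274), and both were under 1 CPM in every library. HES2, another HES family member, was at 4.65, 0.102 and 0.127 CPM with glutamine and at 6.99, 6.47 and 5.12 CPM without. DTX1, a ubiquitin ligase that acts on Notch, had 33.2, 2.84 and 2.29 CPM in the first group and 46.8, 43.4 and 37.9 CPM in the second. In both, replicate 1 with glutamine stood under the libraries without and many times above its own group.

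Their log2 fold changes were 1.92 and 1.74 with all libraries (edgeR adjusted p 0.232 and 0.244) and 5.74 and 4.06 without that library (edgeR adjusted p 6.52e-07 and 9.05e-08). In the fit of 5 libraries DLK1, a non-canonical ligand, rose by 3.21, DLL1, a Delta ligand, by 1.67, NEURL1, a ubiquitin ligase for ligands, by 1.64 and NRARP, a feedback inhibitor, by 1.59. The edgeR adjusted p of these 4 ran up to 0.00086. With all libraries the log2 fold changes were smaller, at 1.598, 1.08, 1.08 and 1.02 in the same order, and none was called (edgeR adjusted p 0.116 to 0.200).

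Of the lower genes HES7, an oscillating repressor of the segmentation clock, was at 0.641, 5.19 and 4.47 CPM with glutamine and at 1.33, 1.02 and 0.853 CPM without. Its fitted value was -1.67 on the log2 scale (edgeR adjusted p 0.151), and -2.17 (edgeR adjusted p 1.35e-05) without replicate 1 with glutamine. DLL3, an inhibitory ligand of the same clock, fell by 0.996 in the fit of 5 libraries, BHLHE40 by 0.89, the corepressor gene SPEN by 0.47 and PSEN2 by 0.37. With all libraries these 4 had -0.69, -0.60, -0.40 and -0.28, and none was called. HES genes therefore moved in both directions there, with HES1, HES2, HES4, HES5 and HES6 called higher and HES7 lower. With all libraries no HES gene was called, and HES6 had 0.90 on the log2 scale (edgeR adjusted p 0.0721) against 1.10 in the fit of 5.

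**Figure D4:**
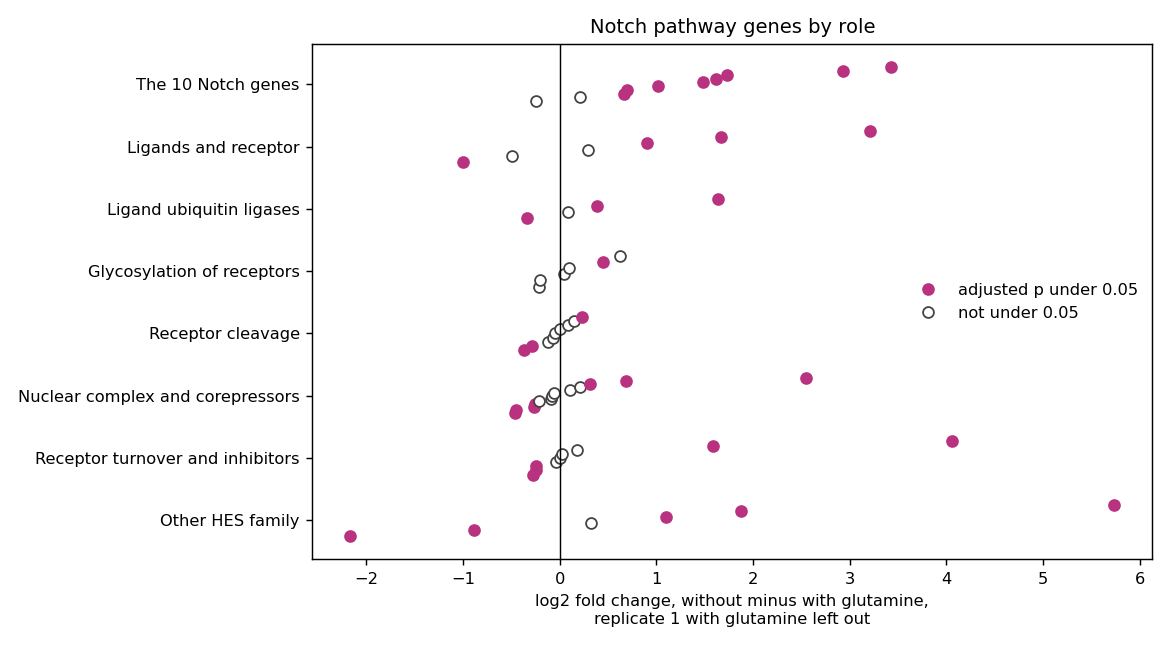
Log2 fold change of each gene, without minus with glutamine, in the fit without replicate 1 with glutamine, by role and with each gene 1 point. Filled points had an edgeR adjusted p under 0.05 and points within a row are spread vertically for legibility. The 10 Notch genes have 8 filled points, all right of 0, while the receptor cleavage row stays between -0.37 and 0.23.

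By a fixed rule, the 3 genes with the highest Pearson r of log2 CPM over the 6 libraries were named for 6 members, out of 16880 genes with a mean of at least 50 counts. The libraries form 2 sets, replicates 2 and 3 with glutamine against the other 4, so r mainly reads that division. For JAG1 they were MGAT5B (0.99995), TTC39C (0.99955) and DTX1 (0.99941). For HES1 they were TPMT (0.9998), BCL11A (0.9998) and ZDHHC23 (0.9997), and for HES4 MYO1C (0.999), FGFRL1 (0.999) and LINC01315 (0.999). They were GGN (0.996), ZFP64 (0.993) and MED25 (0.992) for NOTCH1, EHD4 (0.997), LRRC4B (0.996) and WWP2 (0.996) for NOTCH3, and VENTX (0.998), PIF1 (0.996) and RSPH1 (0.994) for HEY1.

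Marker lists were set beside these values, because in bulk RNA fewer cells of a type and less RNA per cell cannot be told apart. With all 6 libraries edgeR and limma-voom called 0 of the 50 markers they tested. DESeq2 called 23 of the 53 it tested, where 14% of all genes it adjusted over were called. At an edgeR unadjusted p under 0.05 there were 30 of 50, against 29.7% of all genes. The calls given per list are those of edgeR without replicate 1 with glutamine, where 22.3% of all genes were called higher and 19% lower. The labelled cell type was checked by 10 nephron progenitor and intermediate mesoderm markers. SALL1, WT1 and EYA1 were at 112 CPM or more in every library. SIX2, a defining nephron progenitor gene, was at 6.57, 34.8 and 27.8 CPM with glutamine and at 9.70, 7.80 and 7.27 CPM without. Others of the list were low in some libraries. PAX2 was at 150, 17.0 and 12.9 CPM with glutamine and at 245, 199.9 and 146 CPM without. LHX1 had 71.8, 4.51 and 4.66 CPM in the first group and 137, 114 and 89.5 CPM in the second. HOXD11 had 0.542, 0 and 0.0127 CPM with glutamine and 3.22, 5.33 and 6.05 CPM without. The summed level of the list was 795 to 1609 CPM with glutamine, highest in replicate 1, and 1498 to 2009 CPM without. In the fit of 5 libraries 7 of the 10 were called higher and 3, SIX2, EYA1 and OSR1, lower.

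The 8 early nephron, podocyte and tubule markers summed to 205 to 308 CPM with and 279 to 368 CPM without, and 4 of the 7 tested were called higher and 2 lower in that fit. These lists moved between the same libraries as JAG1, HES1 and HES4, and their part in the change of the Notch genes was not tested.

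Markers of other cell types were summed in the same way. The 7 endothelial markers summed to 48.1 to 96.0 CPM with glutamine and 43.2 to 80.6 CPM without, and 1 was called higher and 4 lower in the fit of 5 libraries. PECAM1 and CDH5 were under 2 CPM in every library. KDR was at 24.3, 82.3 and 69.8 CPM with glutamine and at 13.5, 12.7 and 17.5 CPM without, while EMCN had 14.6, 1.81 and 1.83 CPM in the first group and 22.8, 42.5 and 53.7 CPM in the second. The 6 mural and smooth muscle markers summed to 241 to 305 CPM with and 299.99 to 453 CPM without, with 4 called higher and 1 lower. ACTA2 of that list was at 13.4, 12.7 and 16.2 CPM with glutamine and at 46.6, 101 and 94.4 CPM without, so there replicate 1 with glutamine stayed with its group. The 4 kidney stroma markers summed to 424 to 586 CPM with and 462 to 668 CPM without, with 2 called higher and 1 lower. The 7 paraxial mesoderm markers summed to 75.0 to 209 CPM with and 80.8 to 118 CPM without, with 5 called lower. The 7 neural markers summed to 17.9 to 29.3 and 17.9 to 23.0 CPM, with 1 called higher and 4 lower. Of the 4 pluripotency markers NANOG was at 0 in 4 libraries and had 1 count in the other 2, and DPPA4 was at 113 CPM or more. That list summed to 120.2 to 192 CPM with and 221 to 281 CPM without, and 1 of its 2 tested genes was called higher. The part of these lists in the Notch values was not tested.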

How the data were processed

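RNA was measured in 6 libraries, single reads of 50 nt from stranded mRNA kits per the labels' protocols. The authors deposited raw counts per Ensembl gene, and a second table in which these are divided by 1 size factor per library (a signal, since the values are not whole). The submitters' processing notes name cutadapt, Trim Galore, FastQC, STAR 2.5.2b, DESeq2 and GRCh38. The counting program, annotation release and strand setting are not given in the sources used here, so counts of overlapping and copied genes are uncertain. Column headings name days 0 and 9, and columns were assigned through the heading stated in each sample's description; headings of day 0 are the libraries with glutamine.

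Symbols and exon lengths came from GENCODE 29 (56531 of 60107 IDs matched). Raw counts were tested with edgeR 4.0.16 in R 4.3.3 (filterByExpr, TMM, quasi-likelihood F test, legacy = FALSE, robust = FALSE), adjusted over all 22613 genes kept by the Benjamini-Hochberg method at a threshold of 0.05. Log2 CPM used a prior count of 2. DESeq2 1.42.0 and limma 3.58.1 gave alternatives, and the edgeR fits were tested on simulated data. Libraries held 78220507 to 84746566 counts, and the number of libraries limits the precision.

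The members, lists and tests were chosen with earlier results of these data known. Genes named are the 10 members; listed pathway genes that passed with all libraries or, without replicate 1 with glutamine, the 6 largest changes in each direction with a mean of at least 50 counts; overlapping or copied genes; and the 3 genes most alike to each of 6 members. RBPJ, HES5, HES6, TLE2, and the genes called by DESeq2 or shown among the markers were named after their values were seen. Other listed genes enter only through counts and sums, and some results are not reported here.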

Additional observations from a re-analysis of the deposited data

How the results depend on the processing

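The count of members called was 0 in edgeR under every scaling, filter and edgeR setting tried and in limma-voom and limma-trend. It was 2 with DESeq2, where 6 of the other pathway genes were called against 0, and 14% of the genes DESeq2 adjusted over. With 1 library left out, edgeR called from 0 to 8 members and from 0 to 28 pathway genes, and the fit without replicate 1 with glutamine gave the highest, while the other 5 fits called 0 of either. Members whose groups did not overlap numbered from 4 to 9 in those fits, the highest again without that library, and 3 under upper quartile scaling and under library size only. Of 170 member values under alternatives, 10 became called, 2 reversed and the remaining 158 kept direction and call. The reversed ones were HEY2, from -0.25 to 0.11 with 1 library left out, and JAG2, from -0.0072 to 0.45. The 0.11 came without replicate 3 with glutamine, and the -0.0072 without replicate 1 of the group without it. The cause of the difference between DESeq2 and edgeR was not tested. The median log2 fold change over all genes was -0.0433 under upper quartile scaling, the largest shift of the scalings. With the replicate block 0 members and 0 pathway genes were called, and 8 members had an unadjusted p under 0.05, as had 27.8% of all genes in that fit. Whether same-numbered libraries share more than a number is not known. Their deviations from the group means correlated at -0.02, 0.00009 and 0.03. Of the 3 libraries with glutamine 1 correlated best with its own number. Replicate 1 with glutamine stood apart from its group and so weighs on that group's mean and deviations. These correlations therefore cannot decide whether the numbers mark pairs.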
